A study of Mus musculus with 3 samples.

Results

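The genes described here are 101 chromatin regulators: subunits of nucleosome remodelers, histone deacetylases, histone demethylases and methyltransferases, DNA methyltransferases, and proteins that read histone marks. They were taken by symbol from the gene names of the array, as names beginning with Smarc, Chd, Arid, Hdac, Sirt, Jmjd, Jarid1a or Jarid1b, Aof, Setd, Mll, Ash, Suv420, Dnmt, Mbd, Myst, Brd, Ing or Phf (followed by a digit where the family is numbered), among 16079 genes with at least 3 probes. Each of the 101 has 1 promoter on the array, with 5 to 32 probes and 1449 probes in all, spread over 20 chromosomes. The array names are older symbols in part: 85 are current in RefSeq and 16 are synonyms, such as Aof2 for Kdm1a and Suv420h1 for Kmt5b. The rule itself uses no measured value.

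The chromatin came from C2C12, an established mouse myoblast line. The cells were arrested in G0, a reversible exit from the cell cycle, by culture in suspension in 2% methylcellulose, and were fixed with 1% formaldehyde, which was stopped with 0.125 M glycine. All 3 arrays share this state: 2 carry DNA precipitated with an antibody against PRDM2 and 1 carries DNA precipitated with an antibody against H3K9me2, each beside input DNA. No growing or differentiated cells are among them, so the values describe where signal lies in arrested cells and not how it differs from another state. Precipitated (IP) DNA was labelled with Cy5 and input with Cy3 on every array, so an effect of the dyes and an effect of the antibody cannot be told apart. The arrays measure DNA only, so the cell type could not be checked against marker expression. Whether separate cultures lie behind the PRDM2 arrays is not stated in the labels, and p-values therefore measure only the spread between these samples.

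PRDM2, also called RIZ, is a zinc finger protein with a PR domain of the kind that methylates histone H3 at lysine 9. H3K9me2, the dimethylated form of that lysine, is a mark of silent chromatin. Chromatin regulators add, remove or read such marks, slide or eject nucleosomes and keep DNA methylation in place; in muscle precursors, deacetylases and SWI/SNF remodelers are known to act with the myogenic factors on muscle genes. The question put to the data here is how much PRDM2 and H3K9me2 signal lies at the promoters of these regulators themselves.

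The array probes that carried the highest PRDM2 signal show what kind of sequence the values come from. For each of 7 genes the probe with the highest mean PRDM2 ratio is printed as it stands on the array, 5′ to 3′, with every CpG in capitals: the 3 genes with the highest promoter value (Aof2, Suv420h1, Sirt1), 2 of the 3 farthest above promoters of like GC content (Brd7, Smarca1) and 2 of those with the most H3K9me2 (Phf14, Setd7).
Aof2: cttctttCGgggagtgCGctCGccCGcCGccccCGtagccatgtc
Suv420h1: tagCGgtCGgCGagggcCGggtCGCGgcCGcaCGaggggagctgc
Sirt1: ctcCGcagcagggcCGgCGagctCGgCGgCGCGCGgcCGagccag
Brd7: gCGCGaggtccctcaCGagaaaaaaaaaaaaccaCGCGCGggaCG
Smarca1: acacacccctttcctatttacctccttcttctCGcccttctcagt
Phf14: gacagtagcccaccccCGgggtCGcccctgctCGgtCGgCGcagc
Setd7: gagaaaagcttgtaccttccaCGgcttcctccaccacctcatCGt
The coordinates are those of the array design, and the sources used here do not name their genome build. The probes lie at chr4:135874470-135874514, chr19:3768818-3768862, chr10:62733745-62733789, chr8:91252204-91252248, chrX:44136832-44136876, chr6:11876133-11876177 and chr3:51648432-51648476, in the order printed. The Suv420h1, Sirt1, Smarca1 and Setd7 probes are centred 951, 625, 386 and 298 bp downstream of the RefSeq start of their gene, and for the other 3 no start could be placed on the array coordinates. Whether they fall in an exon or an intron was not determined. The probes of Sirt1, Suv420h1, Phf14 and Aof2 are rich in CpG, with 9, 8, 5 and 6 of them and 84.4%, 80.0%, 77.8% and 71.1% GC. The Smarca1 probe is unlike these, with 1 CpG and 48.9% GC, and the Setd7 probe has 2 CpGs and 53.3% GC. The Suv420h1 probe had log2 ratios of 6.21 and 6.27 on PRDM2 arrays 1 and 2 and 1.38 on the H3K9me2 array, and the Sirt1 probe had 5.47, 4.78 and 1.25. Brd7 had 5.05, 3.76 and 1.96 at its probe, whose input was well above background on 1 of the 3 arrays only, while that of the other 6 was so on all 3.

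A pair of deacetylase genes from the ends of the range of CpG content shows how far these promoters differ. The 250 bases upstream of the RefSeq start are printed on the strand of the gene, with CpGs in capitals, from GRCm38.p6: chr10:63339036-63339285, minus strand, for Sirt1 and chr12:34917096-34917345, minus strand, for Hdac9.
Sirt1: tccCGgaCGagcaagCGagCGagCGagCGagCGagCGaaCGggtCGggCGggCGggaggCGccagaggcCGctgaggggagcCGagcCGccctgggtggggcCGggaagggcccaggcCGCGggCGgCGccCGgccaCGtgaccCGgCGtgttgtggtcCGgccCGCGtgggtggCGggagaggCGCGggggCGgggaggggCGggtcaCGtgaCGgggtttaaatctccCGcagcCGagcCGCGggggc
Hdac9: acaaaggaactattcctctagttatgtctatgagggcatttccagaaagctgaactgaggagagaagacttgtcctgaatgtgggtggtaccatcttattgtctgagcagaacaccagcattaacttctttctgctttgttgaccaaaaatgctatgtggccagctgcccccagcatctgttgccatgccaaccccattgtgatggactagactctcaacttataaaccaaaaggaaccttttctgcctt
The Sirt1 stretch holds 39 CpGs at 79.2% GC and the Hdac9 stretch 0 CpGs at 44.4% GC. Their promoters had mean PRDM2 log2 ratios of 1.77 ± 0.37 and 0.07 ± 0.28 (SD, n = 2). The pair was chosen after the values were seen. Over the 82 genes with a RefSeq window of 300 bases (250 before and 50 after the start), the median window held 24 CpGs and 61.3% GC, beside 17 CpGs and 58.3% GC for 12470 array genes. Fewer than 5 CpGs were found in 6 of the 82 windows (7.32%), beside 21.2% of all. Other genes went another way than this pair. The window of Phf7 held 50 CpGs beside a PRDM2 mean of -0.47, and that of Setd5 1 CpG beside 1.37. Whether PRDM2 followed the CpG count over the 82 genes was not tested.

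Every value below is a log2 ratio of IP over input, averaged over the probes of a promoter and set relative to the median probe of its array, so 0 is the median probe and not equal amounts of IP and input. The median probe had a ratio of -0.91, -0.80 and -0.27 before this centring (PRDM2 array 1, PRDM2 array 2 and H3K9me2 array), and the median promoter 0.58, 0.43 and -0.23 after it. In the same order, IP signal had a median 1.47, 1.39 and 6.44 times as high as negative-control spots. Input was well above background at 95.7% to 99.4% of the 1449 probes on the 3 arrays and IP at 74.8% to 82.1%. Errors of PRDM2 are the SD of 2 arrays and H3K9me2 has no replicate, so precision is limited by how few arrays there are.

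PRDM2 signal was above the median probe at most of these promoters. On both arrays 80 of the 101 lay above 0, beside 73.3% of all promoters. Their median was 0.81, beside 0.50 over all 16164 promoters, and it was 0.80 and 0.78 on the single arrays. With limma (adjusted p under 0.05 over all promoters), 64 were called higher than the median probe, 2 lower and 35 neither. Of all promoters 46.9% were called higher and 1.08% lower, so the share of higher calls (63.4%) stood above the background before GC content was taken into account. Taking the median promoter as 0, which moved all PRDM2 values down by 0.50, left 33 called higher and 13 lower, beside 17.2% and 13% of all promoters. Loess gave 29 and 10 (20.6% and 7.16% of all), the highest 3 neighbouring probes 36 and 13 (21% and 16.8%) and the median over probes 15 and 0 (5.69% and 0.0866%). Normexp on the raw signals gave 0 each way in limma, for the 101 and for all 16164 promoters. In that fit an unadjusted p under 0.05 was reached by 14 of the 101 above and 4 below 0. The share of all promoters at that p is not given here. By role, the counts of higher calls were 12 of 17 remodelers, 4 of 6 ARID proteins, 9 of 16 deacetylases, 7 of 12 demethylases, 7 of 11 methyltransferases, 6 of 10 genes of DNA methylation, 0 of 2 acetyltransferases and 19 of 27 bromodomain and PHD finger proteins. The plot of promoters by role shows that within each role of at least 6 promoters the values spread more widely than the medians of these roles did.

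**Figure D1:**
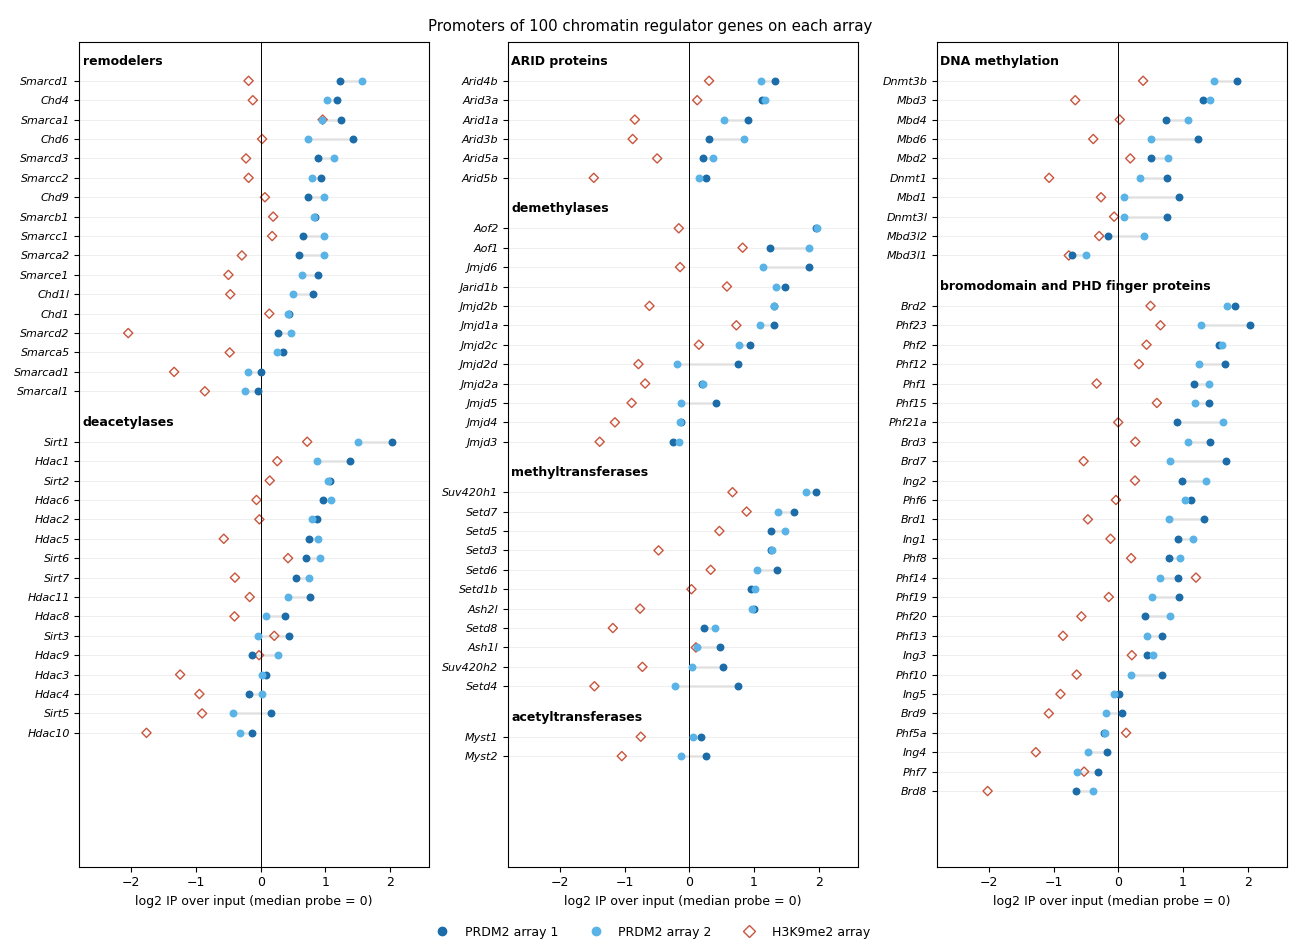
Log2 IP over input of 100 of the 101 promoters, by role and ordered by the PRDM2 mean, on PRDM2 array 1 (dark circles), PRDM2 array 2 (light circles) and the H3K9me2 array (open diamonds); grey lines join the PRDM2 arrays and 0 is the median probe. Each of the larger roles runs from promoters at 1 or more down to promoters near or below 0, and the diamonds lie left of both circles at most of them.

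Among the demethylases, the flavin-dependent enzymes stood at the top before GC content was taken into account. Aof2 encodes LSD1, which removes methyl groups from lysine 4 of histone H3 and works within the CoREST complex. Its promoter (chr4:135873577-135874741, array coordinates, 6 probes) had 1.96 and 1.97 on PRDM2 arrays 1 and 2 and -0.16 on the H3K9me2 array. The PRDM2 mean of 1.96 ± 0.01 was the highest of the 101 (limma adjusted p = 6.21e-05), at the percentile 98.5 of all promoters. Aof1, the related LSD2, had 1.24 and 1.85 for PRDM2 and 0.82 for H3K9me2. Jmjd6, a hydroxylase of the JmjC family whose probes lie within 500 bp of those of another gene name, had 1.85 and 1.14 for PRDM2 and -0.15 for H3K9me2. All 3 were called higher by limma, and the PRDM2 arrays differed by up to 0.70 at Jmjd6. Jarid1b, a lysine 4 demethylase, was also called, at 1.41 ± 0.10. The enzymes of this role that remove methyl groups from H3 lysine 9, the residue that PRDM2 is known to methylate, were split. Phf8, counted with the PHD finger proteins, acts on the same residue and was called higher. Jmjd2b (1.31 and 1.30 for PRDM2 and -0.62 for H3K9me2), Jmjd1a (1.31 and 1.08 for PRDM2 and 0.72 for H3K9me2) and Jmjd2c (0.93 and 0.77 for PRDM2 and 0.15 for H3K9me2) were called higher. Jmjd2a (0.20 and 0.21 for PRDM2 and -0.68 for H3K9me2) and Jmjd2d (0.75 and -0.20 for PRDM2 and -0.79 for H3K9me2) were not, with limma adjusted p of 0.413 and 0.369. Jmjd3, which demethylates H3 lysine 27 and is known to act in differentiation, lay lowest with -0.26 and -0.16 for PRDM2 and -1.39 for H3K9me2, next to Jmjd4, another JmjC hydroxylase, with -0.13 and -0.15 for PRDM2 and -1.15 for H3K9me2. Neither was called lower. With the trend on probe GC removed, Aof2 turned to -0.10 and Aof1 came to 0.10 (limma adjusted p = 0.797 and 0.784), and the 1 demethylase called was Jmjd2b, at 0.75 (adjusted p = 0.00963).

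Among the deacetylases, the sirtuin Sirt1 had the highest PRDM2 mean before GC content was taken into account. Sirt1, an NAD-dependent deacetylase known to hold back muscle differentiation, had 2.03 and 1.51 on PRDM2 arrays 1 and 2 and 0.72 on the H3K9me2 array (PRDM2 mean 1.77 ± 0.37, limma adjusted p = 0.000144). Hdac1, the catalytic subunit of several corepressor complexes, followed with 1.38 and 0.87 for PRDM2 and 0.26 for H3K9me2, and Sirt2, a mainly cytoplasmic sirtuin, with 1.07 and 1.05 for PRDM2 and 0.14 for H3K9me2. These 3 were called higher, although with loess Hdac1 turned to -0.43 and was called lower (limma adjusted p = 0.0387) and over the highest 3 probes Sirt2 turned to -0.62, not called. Also called higher were Hdac2 at 0.84 ± 0.05, Hdac5 at 0.82 ± 0.09, Hdac6 at 1.03 ± 0.09, Hdac11 at 0.59 ± 0.23, Sirt6 at 0.81 ± 0.15 and Sirt7 at 0.65 ± 0.14. The class IIa deacetylases, which bind MEF2 and restrain muscle genes, gave both outcomes. Hdac5 was called higher (0.75 and 0.88 for PRDM2 and -0.57 for H3K9me2), whereas Hdac4 (-0.18 and 0.02 for PRDM2 and -0.95 for H3K9me2) and Hdac9 (-0.13 and 0.26 for PRDM2 and -0.03 for H3K9me2) lay near 0 with limma adjusted p of 0.765 and 0.806. The difference between these genes was not tested, and their order turned with the trend on probe GC removed: Hdac5, whose probes hold 52.1% GC, then had -0.18, Hdac4 0.16 and Hdac9 0.32, none of them called. In the same fit Sirt1 had 0.49 and was not called (limma adjusted p = 0.101), while Hdac6 at 0.85 and Hdac1 at 0.67 were the 2 deacetylases called (adjusted p = 0.00334 and 0.023). Hdac10, a polyamine deacetylase, was lowest with -0.14 and -0.32 for PRDM2 and -1.76 for H3K9me2, and the mitochondrial desuccinylase Sirt5 had 0.16 and -0.42 for PRDM2 and -0.91 for H3K9me2, with PRDM2 arrays of opposite sign. Sirt3 and Hdac3, a mitochondrial sirtuin and the NCoR partner, had means of 0.20 ± 0.34 and 0.05 ± 0.04.

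Among the methyltransferases, Suv420h1, which methylates lysine 20 of histone H4, had 1.95 and 1.79 on PRDM2 arrays 1 and 2 and 0.67 on the H3K9me2 array. Its PRDM2 mean of 1.87 ± 0.11 was second to Aof2 over the 101 (limma adjusted p = 7.9e-05). Its paralog Suv420h2, which puts the same mark on, had 0.52 and 0.04 for PRDM2 and -0.73 for H3K9me2 and was not called (limma adjusted p = 0.302). Setd7, which monomethylates H3 lysine 4 and many other proteins, had 1.61 and 1.37 for PRDM2 and 0.88 for H3K9me2, and Setd5 had 1.25 and 1.48 for PRDM2 and 0.46 for H3K9me2. Both PRDM2 arrays exceeded 1 at each of these 2 promoters and both were called. With the GC trend removed Setd7 came to 0.48 and Setd5 to 0.41, and neither was called. The lowest PRDM2 mean of this role was that of Setd4, 0.26, from arrays of opposite sign (0.75 and -0.22) and beside -1.47 for H3K9me2. Suv420h2 was next, and then Ash1l, which methylates H3 lysine 36 and had 0.47 and 0.12 for PRDM2 and 0.10 for H3K9me2. Setd8, the enzyme of H4 lysine 20 monomethylation, was not called either, at 0.31 ± 0.11. Setd1b and Ash2l, which both belong to the complexes that methylate H3 lysine 4, stood at 0.99 ± 0.04 and 0.98 ± 0.02 and were called higher. With the GC trend removed they came to 0.39 and 0.34, and neither was called, nor with the median promoter as 0.

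Of the remodelers, the highest was Smarcd1, the BAF60A subunit of SWI/SNF, with 1.23 and 1.57 on PRDM2 arrays 1 and 2 and -0.19 on the H3K9me2 array. Smarcd3, the BAF60C variant known from heart and skeletal muscle, had 0.88 and 1.13 for PRDM2 and -0.23 for H3K9me2, and Smarcd2, the third variant, had 0.26 and 0.46 for PRDM2 and -2.05 for H3K9me2. Smarcd1 and Smarcd3 were called higher (limma adjusted p = 0.00037 and 0.00205); Smarcd2 was not (0.16), and its H3K9me2 value was the lowest of the 101. Chd4, the ATPase of the NuRD complex, had 1.18 and 1.02 for PRDM2 and -0.12 for H3K9me2, and was called higher, but its PRDM2 mean turned to -0.35 with loess and -0.17 with the GC trend removed. Smarcd3 turned to -0.12 with loess. None of these 3 values was called. Smarcd1 came to 0.17 with loess and 0.28 with the GC trend removed, and was not called in either. Smarca1, the X-linked ISWI ATPase SNF2L, had 1.24 and 0.95 for PRDM2 and 0.96 for H3K9me2, and its close relative Smarca5 had 0.35 and 0.25 for PRDM2 and -0.48 for H3K9me2. Smarca2, the SWI/SNF ATPase BRM, was called at 0.79 ± 0.27. Smarcad1 and Smarcal1, a remodeler of silent chromatin and an annealing helicase, were at the bottom of this role with means of -0.09 ± 0.14 and -0.14 ± 0.15. Over probes with input and IP well above background they had 0.90 and 0.66. Limma called both higher there (adjusted p = 0.0131 and 0.0453). That filter selects on the IP signal, and the median over all promoters rose with it from 0.50 to 1.08. Both thus stayed below the median promoter. Of the ARID proteins, DNA-binding proteins that include subunits of SWI/SNF, Arid4b had 1.32 and 1.11 for PRDM2 and 0.30 for H3K9me2, Arid3a 1.12 and 1.16 for PRDM2 and 0.12 for H3K9me2 and Arid1a 0.91 and 0.53 for PRDM2 and -0.84 for H3K9me2. Those 3 were called higher, though Arid4b turned to -0.35 with the GC trend removed, not called. Arid5a (0.29 ± 0.11) and Arid5b (0.20 ± 0.08) were not, and Arid5b combined a PRDM2 value above 0 on both arrays with -1.48 for H3K9me2. Input at Arid5b was high relative to like GC, at 0.98 and 0.67 on the PRDM2 arrays and 1.99 on the H3K9me2 array. On the latter, IP was well above background at 10 of its 22 probes. The part of input in its values was not tested.

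The genes of DNA methylation ran from 1.66 to -0.61, the lowest value of the 101. Dnmt3b, which sets methylation de novo, had 1.84 and 1.48 on PRDM2 arrays 1 and 2 and 0.38 on the H3K9me2 array (PRDM2 mean 1.66 ± 0.26, limma adjusted p = 0.000165). Dnmt1, the maintenance enzyme, had 0.76 and 0.33 for PRDM2 and -1.07 for H3K9me2; it was called at an adjusted p of 0.0493, just inside the threshold of 0.05 in limma. Dnmt3l, a cofactor without catalytic activity, was not called, with 0.76 and 0.08 for PRDM2 and -0.06 for H3K9me2. Mbd3, a NuRD subunit, had 1.31 and 1.41 for PRDM2 and -0.66 for H3K9me2, and Mbd4, a glycosylase that repairs deaminated CpGs, had 0.74 and 1.08 for PRDM2 and 0.02 for H3K9me2. Both were called higher, but with loess Mbd4 turned to -0.48 and was called lower (limma adjusted p = 0.0289). Dnmt1 turned to -0.16 with loess, not called. With the GC trend removed Dnmt3b had 0.54 and was not called (limma adjusted p = 0.0667). At the other end, the germ cell gene Mbd3l1 had -0.71 and -0.50 on PRDM2 arrays 1 and 2 and -0.76 on the H3K9me2 array. Its mean of -0.61 ± 0.15 was called lower (limma adjusted p = 0.0273). IP was well above background at 6 and 5 of its 14 probes on the PRDM2 arrays. With the GC trend removed Mbd3l1 had -0.31 and was not called (limma adjusted p = 0.327), and with normexp it had -0.017. Mbd3l2, the relative of Mbd3l1, had -0.16 and 0.41 for PRDM2 and -0.30 for H3K9me2, with PRDM2 arrays of opposite sign.

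Of the bromodomain and PHD finger proteins, Brd2, a BET protein that binds acetylated histones, had 1.81 and 1.67 for PRDM2 and 0.50 for H3K9me2. Phf23 had 2.04 and 1.28 for PRDM2 and 0.65 for H3K9me2, and Phf2, a demethylase of the PHD family, had 1.56 and 1.61 for PRDM2 and 0.44 for H3K9me2. All 3 were called higher by limma, and at Phf23 the arrays differed by 0.76. With the GC trend removed Brd2 had 0.34, Phf23 0.40 and Phf2 0.26, none of them called. Brd8, a subunit of the TIP60 acetyltransferase complex, had -0.66 and -0.40 for PRDM2 and -2.02 for H3K9me2 and was called lower at an adjusted p of 0.0494 in limma. It rests on 6 probes that lie within 500 bp of those of Kif20a. Phf7, a gene of male germ cells with 5 probes, had -0.31 and -0.63 for PRDM2 and -0.53 for H3K9me2 and was not called (0.0783). The acetyltransferases Myst1 (MOF) and Myst2 (HBO1) had means of 0.12 ± 0.08 and 0.06 ± 0.26 and were not called.

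GC content moved with these values. Over the 101 promoters the PRDM2 mean correlated with the mean GC content of the probes at r = 0.78, and over all promoters at r = 0.64; the points share arrays and base composition, so this is a description. The 22 promoters with probe GC over 50% were all called higher. Of the 12 with probe GC under 40%, limma called 1 higher (Phf14) and 2 lower (Mbd3l1 and Brd8). These bounds were chosen after the values were seen, and the share of all promoters called within them is not given here. In the most GC-rich of 20 classes the PRDM2 median was 1.54 over all promoters and 1.56 over those of the 101. In the most GC-poor class it was 0.18 over all and -0.14 over the 2 of the 101. The median probe GC of the 101 was 45.6%, beside 43.9% of all promoters. Against promoters of like GC content (20 classes), the member median was 0.05, and 44 lay above their class median on both PRDM2 arrays and 30 below, beside 34.5% of all promoters each way. With the trend on probe GC removed before averaging, limma called 12 higher and 1 lower, beside 17.5% and 1.57% of all promoters, and the median became 0.20, beside 0.24 over all. The share of higher calls was then below the background. By role these calls fell to 1 of 17 remodelers, 0 of 6 ARID proteins, 2 of 16 deacetylases, 1 of 12 demethylases, 2 of 11 methyltransferases, 0 of 10 genes of DNA methylation and 6 of 27 bromodomain and PHD finger proteins. Aof2 went from the highest value to -0.10 in that fit; with 57.0% GC it had the most GC-rich probes of the 101.

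**Figure D2:**
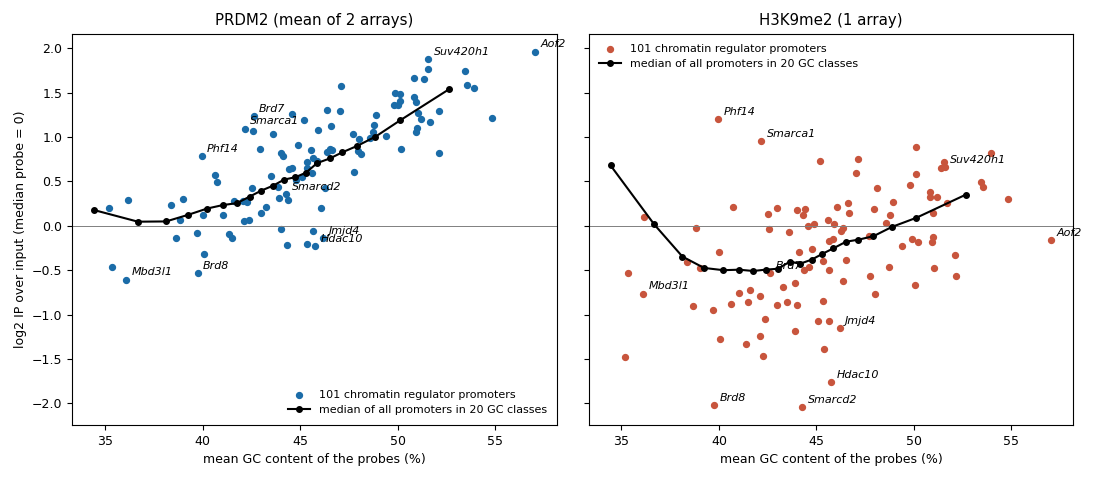
Log2 IP over input of the 101 promoters against the mean GC content of their probes, for PRDM2 (left, mean of 2 arrays) and H3K9me2 (right, 1 array); the black line joins the medians of all promoters in 20 GC classes. The PRDM2 points follow the line upward, with Brd7 and Smarca1 above it and Hdac10 and Jmjd4 below it, while the H3K9me2 line falls and then climbs and its points lie widely on both sides.

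Among the 12 promoters called higher after removal of the GC trend, from 1.06 to 0.59, were Brd7, Phf6, Smarca1, Hdac6, Suv420h1, Phf21a, Jmjd2b, Phf8, Hdac1, Phf15 and Ash1l, and 11 of the 12 had been called before. The gene called lower was Brd8, at -0.73 (limma adjusted p = 0.0116). Brd7, a subunit of the PBAF form of SWI/SNF, lay farthest above its GC class, by 0.91, with 1.67 and 0.80 for PRDM2 and -0.54 for H3K9me2. Smarca1 lay 0.77 above, Phf6 0.75 and Phf21a 0.70; Phf6 is an X-linked gene mutated in leukaemia and Phf21a a subunit of the LSD1 complex that binds unmethylated H3 lysine 4. Phf6 had 1.12 and 1.02 for PRDM2 and -0.04 for H3K9me2 and Phf21a 0.91 and 1.61 for PRDM2 and -0.00088 for H3K9me2. Farthest below were Hdac10 by 0.93, Jmjd4 by 0.90, Jmjd3 by 0.80, Brd9, a subunit of the non-canonical SWI/SNF complex, by 0.76 and Phf5a, a splicing factor, by 0.72. Brd9 had 0.06 and -0.18 for PRDM2 and -1.07 for H3K9me2 and Phf5a -0.23 and -0.20 for PRDM2 and 0.12 for H3K9me2. Input moved with these differences: relative to promoters of like GC, the ratio and the input correlated over the 101 at r = -0.39 on PRDM2 array 1, -0.43 on PRDM2 array 2 and -0.46 on the H3K9me2 array, beside -0.19, -0.31 and -0.36 over all promoters. Input is the denominator of the ratio, so the ratio and the input are not independent. At Brd7 the input lay at -0.67, -1.05 and -0.81 relative to its GC class on the 3 arrays, at Smarca1 at -1.15, -0.74 and -1.59, and at Phf5a at 1.40, 1.35 and 1.18. The part of input in these differences was not tested.

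Smarca1, Phf6, Phf8, Hdac6 and Hdac8 are the X-linked genes among the 101. All 5 lay above promoters of like GC on both PRDM2 arrays, as did 364 of the 541 X-linked promoters of the array (67.3%), and 4 of the 5 were called after removal of the GC trend, beside 47.1% of the X-linked promoters and 17.5% of all. Hdac8, a class I deacetylase, was the one not called, with 0.38 and 0.08 for PRDM2 and -0.40 for H3K9me2. Hdac6, the tubulin deacetylase, had 0.97 and 1.09 for PRDM2 and -0.06 for H3K9me2, and Phf8, a demethylase of H3 lysine 9, had 0.79 and 0.95 for PRDM2 and 0.20 for H3K9me2. Input at X-linked promoters was lower than at autosomal ones of like GC: the median over all 541 was -0.77, -0.74 and -0.74 on the 3 arrays, and over the 5 genes it was -0.56, -0.74 and -0.38, while on autosomes it was 0.01 to 0.02. Its part in the X-linked values was not tested.

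Within promoters, the PRDM2 signal was highest just downstream of the start before GC content was taken into account. RefSeq starts could be placed for 52 of the 101 genes. In probes centred 0 to 500 bp downstream of it, the median log2 ratio was 2.04 and 2.01 on PRDM2 arrays 1 and 2 (127 probes of 50 promoters), beside 1.03 and 1.16 over all promoters with a placed start. In the 500 bp upstream it was 0.65 and 0.77, beside 0.12 and 0.20, and from -1000 to -500 bp it was -0.28 and -0.31, beside -0.15 and -0.16. The H3K9me2 array also had its highest median in the first 500 bp downstream, at 1.10, beside 0.58 over all. GC content followed the same course: the median probe of the first 500 bp held 55.6% GC, beside 51.1% over all. With the GC trend removed, the median ratios there became 0.19 and 0.19 on the PRDM2 arrays, beside -0.06 and 0.00 over all, and the H3K9me2 median became -0.03. The peak was then lost on PRDM2 array 2, where the bin from -2500 to -2000 bp had 0.33 (48 probes), and on array 1 that bin had 0.17, close to the 0.19 downstream of the start. From 1000 to 1500 bp downstream H3K9me2 had its lowest median among the bins plotted, -0.73, beside -0.22 over all, at a median GC content of 39.8%.

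**Figure D3:**
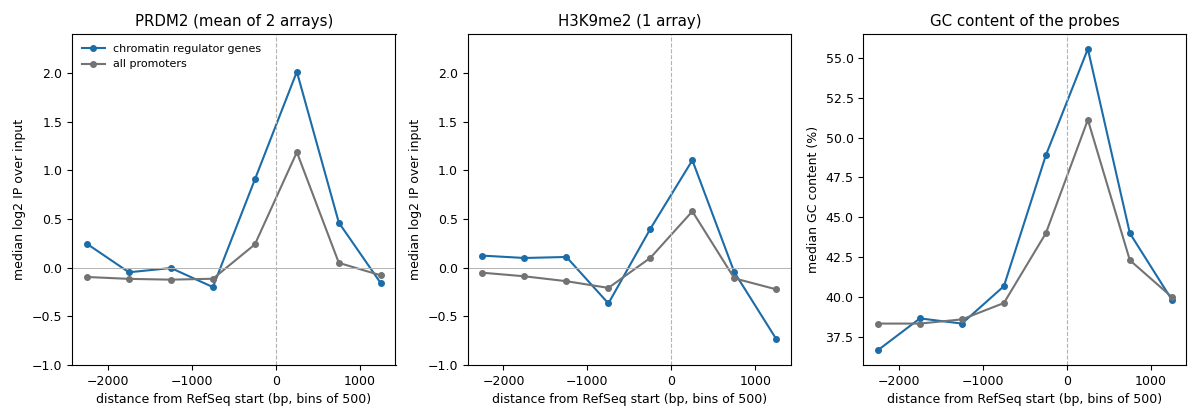
Median log2 IP over input per bin of 500 bp by distance from the RefSeq start, for PRDM2 (left) and H3K9me2 (middle), and the median GC content of the same probes (right), for the chromatin regulators with a placed start (blue) and for all promoters (grey). All 3 quantities peak in the first 500 bp downstream of the start, where PRDM2 reaches 2.01 in the chromatin regulators and 1.19 over all promoters; bins with fewer than 20 chromatin regulator probes are left out.

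The course along single promoters differed from gene to gene. Dnmt3b was the only one of the 101 with at least 3 neighbouring probes above the 95th percentile of both PRDM2 arrays, beside 0.266% of all promoters. Its 4 probes centred from -124 to 304 bp relative to the start had 6.62, 5.12, 5.44 and 4.61 on array 1 and 4.65, 4.89, 6.56 and 4.91 on array 2. H3K9me2 at those probes was 3.32, 1.99, 3.99 and 1.94. With the GC trend removed, 0.00619% of all promoters and none of the 101 had such a run. At Mbd3 the 3 probes centred 157 to 453 bp downstream of the start had 3.76, 3.86 and 5.66 on array 1 and 4.01, 4.04 and 4.94 on array 2, while H3K9me2 was -5.04 at the probe centred at -869 bp. At Smarca1 the probe centred at -1069.5 bp had 3.28 and 2.52 for PRDM2 and 3.23 for H3K9me2, and the probe at 386 bp had 3.68, 5.36 and 1.11, so high probes lay on both sides of the start. Sirt1 had its highest probe 625 bp downstream, and the probe centred at -696.5 bp was high on PRDM2 array 1 and on the H3K9me2 array (5.15 and 3.13) but at 1.16 on PRDM2 array 2. Hdac9 had no such stretch: its probe centred at -32.5 bp had 1.84 and 3.13 for PRDM2, and those on either side lay below 0 on both PRDM2 arrays.

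**Figure D4:**
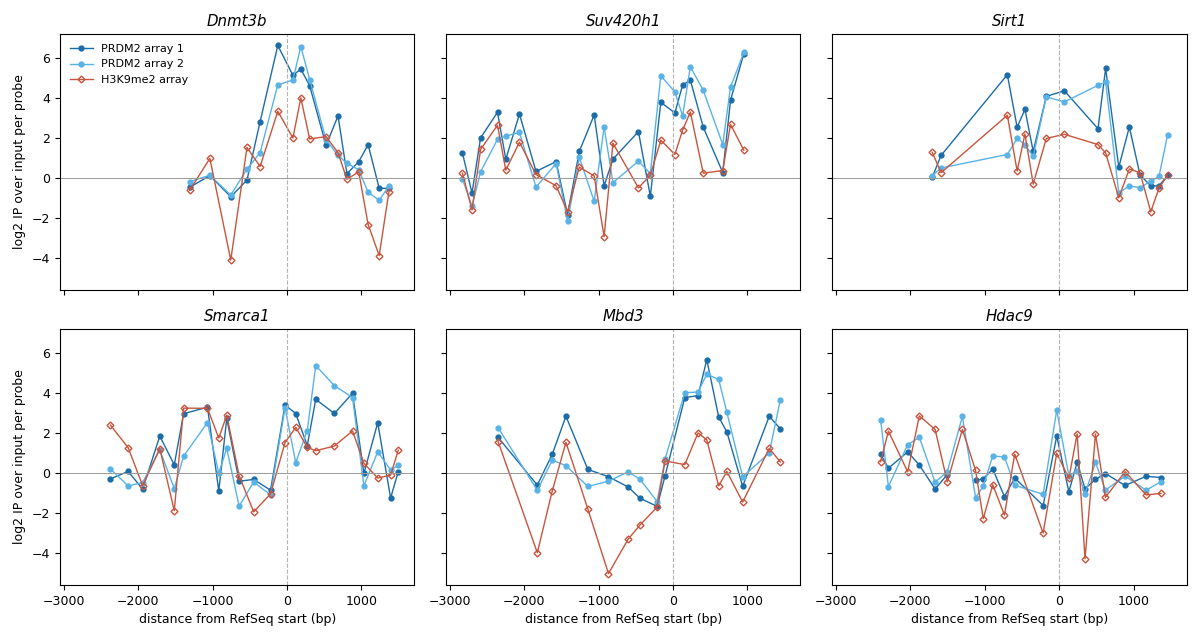
Log2 IP over input of each probe against its distance from the RefSeq start at 6 promoters, on PRDM2 array 1 (dark circles), PRDM2 array 2 (light circles) and the H3K9me2 array (open diamonds). Dnmt3b, Suv420h1, Sirt1, Smarca1 and Mbd3 carry high PRDM2 probes around or after the start. Suv420h1 and Smarca1 also carry high probes farther upstream, with low ones between, and Hdac9 carries no group of high probes.

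The H3K9me2 array placed these promoters close to the others. Their median was -0.19, beside -0.23 over all promoters, and -0.05 relative to like GC, with 46 above and 55 below their class median. A value above 1, the fold used here as a description since 1 array allows no test, was found at Phf14 only, beside 4.08% of all promoters. Phf14, a PHD finger protein that binds histone H3, had 1.20, beside 0.92 and 0.65 for PRDM2. Smarca1 (0.96), Setd7 (0.88) and Aof1 (0.82) followed. Input on the H3K9me2 array was low relative to like GC at Phf14 (-0.95) and Smarca1 (-1.59), and well above background at 11 of 15 and 17 of 22 probes. It was also low at Jmjd1a (-2.04) and Sirt1 (-1.72), each with 0.72 for H3K9me2, and well above background at 8 of 13 and 14 of 16 probes. The part of input in the values of these genes was not tested. Values below -1 were found at 14 promoters, beside 12.2% of all. The lowest were Smarcd2 at -2.05, Brd8 at -2.02 and Hdac10 at -1.76, and input there lay at 0.09, 0.08 and 0.92 relative to like GC. No promoter of the 101 held a run of 3 neighbouring probes above the 95th percentile of the H3K9me2 array, beside 0.643% of all.

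The comparison of both antibodies asks where PRDM2 lies apart from the mark that its enzyme domain is associated with. Both PRDM2 arrays exceeded the H3K9me2 array at 95 of the 101 promoters, beside 85.2% of all. Both comparisons share the 1 H3K9me2 array, and with the median promoter of each array as 0 the count was 64, beside 46.2% of all. Limma, which takes the spread of the PRDM2 pair for the single H3K9me2 array too, called 55 higher for PRDM2 and 0 lower. Of all promoters 41.1% and 1.6% were called. At an unadjusted p under 0.05 the counts were 74 and 0, and the share of all promoters at that p is not given here. The median difference was 1.01, beside 0.85 over all. With the median promoter of each array as 0, 2 were called higher and 0 lower, beside 0.736% and 3.03%, so most of these calls rest on where 0 is set. Loess gave 7 higher and 2 lower (2.99% and 8.59% of all). With normexp on the raw signals no promoter was called, and the median difference of the 101 turned to -0.31, beside -0.29 over all. With the GC trend removed 10 were called higher and 0 lower, beside 6.4% and 2.06%. All 10 had been called before: Smarcd2, Arid5b, Jmjd2b, Brd7, Setd4, Ash2l, Hdac10, Mbd3, Brd8 and Dnmt1. A call here does not mean that PRDM2 was high. Before that removal Brd8 was called lower for PRDM2, Hdac10 lay below 0 on both PRDM2 arrays and Setd4 had PRDM2 arrays of opposite sign. On the single H3K9me2 array Brd8, Hdac10 and Setd4 had -2.02, -1.76 and -1.47. The largest difference was at Smarcd2, 2.41 (SE 0.35, limma adjusted p = 0.0106), where PRDM2 was near the median promoter and H3K9me2, at -2.05, far below it. These SEs and p-values hold no measured error of the H3K9me2 array. Aof2 followed with 2.13 (SE 0.34), Mbd3 with 2.02, Jmjd2b with 1.92 and Brd7 with 1.77; at Aof2, Mbd3 and Jmjd2b PRDM2 was high on both arrays and H3K9me2 below 0. Phf14 and Phf5a were the 2 promoters at which both PRDM2 arrays lay below the H3K9me2 array, with differences of -0.41 and -0.33 (limma adjusted p = 0.319 and 0.41), and neither was called. Over the 101, PRDM2 and H3K9me2 correlated at r = 0.69, beside 0.52 over all promoters, and relative to like GC at r = 0.60, beside 0.58.

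**Figure D5:**
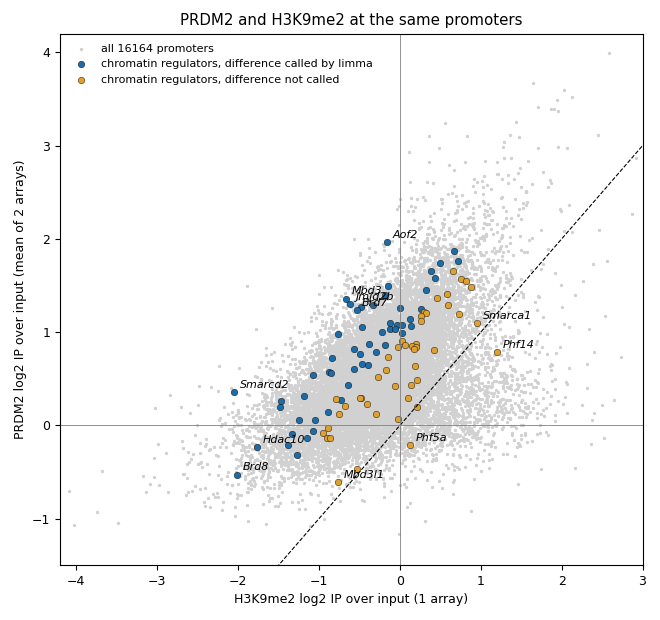
PRDM2 (mean of 2 arrays) against H3K9me2 (1 array) log2 IP over input for all promoters (grey) and the 101 chromatin regulators, in blue where limma called PRDM2 higher than H3K9me2 and in yellow where it did not; the dashed line marks equal values. Nearly all chromatin regulators lie above the dashed line, Smarcd2, Brd8 and Hdac10 far to the left, and Phf14 and Phf5a below the line.

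Further genes of the same complexes and pathways, taken from a list of partners and other enzymes, gave 62 promoters outside the 101. Limma called 46 of them (74.2%) higher for PRDM2 and 0 lower, beside 46.9% and 1.08% of all promoters, and their median was 0.93, beside 0.50. With the GC trend removed it called 9 (14.5%) higher, beside 17.5% of all. The genes named here were chosen after their values were seen. The highest was the remodeling factor Rsf1, a partner of Smarca5, with 1.54 and 3.32 on the PRDM2 arrays and 0.01 on the H3K9me2 array. Jarid1d, a Y-linked demethylase of H3 lysine 4, followed with 2.04, 2.68 and 2.09; its input was well above background at 3 of 12 probes on PRDM2 array 1 and lay at -2.24, -2.59 and -0.36 relative to like GC on the 3 arrays. The part of input there was not tested. The 3 CoREST genes, whose products work with LSD1, differed: Rcor2 had 2.30, 1.48 and 0.40, Rcor1 1.42, 1.94 and 0.77, and Rcor3 0.99, 0.79 and 0.02, below the median of the 62. Relative to like GC the 62 had a median PRDM2 of 0.09, beside 0.05 for the 101. On PRDM2 arrays 1 and 2 this median was -0.04 and 0.21 for the 62, of opposite sign, and 0.03 and 0.03 for the 101.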

How the data were processed

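Chromatin of 3 samples was hybridised to 2-colour Agilent promoter arrays. Per the file headers, the deposited red and green processed intensities came from Agilent Feature Extraction 10.5.1.1, after background subtraction and linear dye normalization. The deposited flags, which are other values of 0 or 1 per the file headers, mark control, outlier, saturated and well-above-background spots. Deposited raw intensities, per the file headers mean signals and local background medians, entered only the normexp alternative. The deposited log10 ratios, per the file headers red over green, served as a check. A deposited value table by the authors, on a log2 scale as far as its comparison with the scanner files shows (slope 0.99 to 1.02), was an alternative; its medians were 0.12, 0.10 and 0.28, and the sources used here give neither its tool and centring nor the build of the probe coordinates.

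Log2 ratios of red over green were centred on the median of each array's 237203 non-control probes without outliers, and then averaged over the probes of each promoter (at least 3; split at gaps over 10000 bp). The 5776 probes without a gene name were used for centring only. PRDM2 was tested against 0, and PRDM2 minus H3K9me2, with limma 3.58.1 (lmFit, eBayes) in R 4.3.3 over all 16164 promoters, with Benjamini-Hochberg adjustment; the script was tested on simulated data. GC classes were 20 quantiles of probe GC; the GC trend was the median of probes in bins of 2% GC. Starts and sequences come from RefSeq, GRCm38.p6, through probes found in its start windows; all 101 names matched RefSeq and 82 had a window.

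Members, lists, the rule for named genes and most alternatives were chosen with earlier results of these data known. The rule named, in each role, the 3 highest and 2 lowest PRDM2 means; the 5 highest and 3 lowest H3K9me2 values; up to 5 of the largest differences each way (5 and 2 found); the 5 farthest above and below their GC class; calls lower than 0; and 20 known regulators where present. The values of 1 promoter are included in the counts and fits but are not reported here on their own. A control antibody's array is not used here. Scripts ran in Python 3.11.15 with numpy 2.4.6, pandas 2.3.3 and, for figures, matplotlib 3.10.9.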

Additional observations from a re-analysis of the deposited data

Results flagged for a closer look

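The IP over input of PRDM2 exceeded that of H3K9me2 at 55 of the 101 promoters in limma (adjusted p under 0.05), beside 41.1% of all promoters, a difference between antibodies at the same promoters. Both PRDM2 arrays lay above the H3K9me2 array at 95 promoters, beside 85.2% of all, and share that 1 H3K9me2 array. The count came to 2 promoters with the median promoter of each array as 0. With normexp it was 0, and the median difference over the 101 turned to -0.31.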

How the results depend on the processing

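No paired analysis was possible because the H3K9me2 array carries no replicate number and the groups share fewer than 2 numbers. Leaving out a PRDM2 array leaves no replicate, so it gives values and no test. PRDM2 higher and lower calls were 33 and 13 with the median promoter as 0, 29 and 10 with loess, 12 and 1 with the probe GC trend removed, 36 and 13 over the highest 3 neighbouring probes, 15 and 0 with the median over probes, and 0 and 0 with normexp (14 and 4 at an unadjusted p under 0.05 in limma). With bright input 1 was called lower, and with at least 8 probes 1 lower of 86. With bright input and IP 79 were called higher and 0 lower of 98. Selecting bright IP also raised the median over all promoters to 1.08 and that of the 98 to 1.33. The share of all promoters called in that setting is not given here. Higher calls for PRDM2 minus H3K9me2 were 2 with the median promoter as 0 and 7 with loess (2 lower). They were 10 with the GC trend removed and 27 with the authors' table. With normexp, the median over probes, the highest 3 probes, and bright input and IP they were 0. At an unadjusted p under 0.05 in limma, 0, 31, 13 and 38 were higher there and 9, 2, 3 and 0 lower. With normexp, the median over probes and the highest 3 probes, none of all 16164 promoters was called either way. The median difference turned to -0.31 with normexp, beside -0.29 over all promoters, while it was 1.01 on the processed signals. With the GC trend removed and the median promoter as 0, chosen after seeing the data, every count was 0. At an unadjusted p under 0.05 in limma, 9 were higher and 10 lower for PRDM2, and 11 differences were higher and 3 lower. Shares of all promoters are not given here for that setting, nor for any count at an unadjusted p. One value per gene name and leaving out saturated probes kept all counts.

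The PRDM2 member median minus that of all promoters was 0.31, and 0.015 with normexp, 0.054 with loess, -0.035 with the GC trend removed, 0.20 with the median over probes and 0.42 over the highest 3 probes; leaving out either PRDM2 array gave 0.23 to 0.35. For H3K9me2 (0.05) it turned to -0.15 with loess and -0.16 with the GC trend removed. Relative to like GC, PRDM2 (0.05) was 0.012 with normexp, 0.0063 with loess, 0.045 with bright input, 0.044 with bright input and IP, 0.13 with the median over probes, 0.10 over the highest 3 probes, 0.035 with the authors' table, 0.081 with at least 8 probes, 0.037 in 10 classes, and 0.026 to 0.033 without either array. H3K9me2 (-0.05) was -0.061, -0.068, -0.080, 0.053, -0.15, -0.028, -0.020, 0.0061 and -0.061 under the same alternatives, and -0.039 in classes split by probe number.

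Single genes turned in sign under some settings. With loess these were Chd4 (-0.35), Hdac1 (-0.43), Mbd4 (-0.48), Smarcd3 (-0.12) and Dnmt1 (-0.16). With the GC trend removed they were Chd4 (-0.17), Arid4b (-0.35), Aof2 (-0.095) and Hdac5 (-0.18). Over the highest 3 probes they were Arid1a (-0.017), Hdac1 (-0.090), Sirt2 (-0.62), Mbd4 (-0.15) and Mbd3l2 (-1.30). With normexp they were Sirt2 (-0.085), Mbd4 (-0.14), Smarcd3 (-0.021) and the differences of Aof2 (-0.037) and Jmjd2b (-0.026); Dnmt1 was -0.32 with the median over probes. Smarcad1 (0.90) and Smarcal1 (0.66) turned up with bright input and IP and were called higher, but lay below the median promoter of that setting (1.08). The cause of these changes was not tested. Low IP signal over background on the PRDM2 arrays limits what these values can show.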
